A study of Homo sapiens with 6 samples.

Results

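The genes described here are 34 genes listed by name because they are widely described as direct transcriptional targets of the tumour suppressor p53, a rule that uses no measured value. They were followed in Rh30, a line of alveolar rhabdomyosarcoma cells in which PAX3 is fused to FOXO1, after knock-down of DDX5, a DEAD-box RNA helicase. Of the 34 symbols, 33 matched a gene of the annotation used, among 35580 genes with a transcript in the tables. TRIM22P1 matched none and is not analysed here. SPATA18, which encodes a protein of mitochondrial quality control, had 1 estimated count in siDDX5 replicate 1 and 0 in the other libraries, so 32 members were tested among 15223 genes. The control group held 3 libraries of Rh30 cells labelled as control. The siDDX5 group held 3 libraries of the same line with DDX5 knocked down. Both groups therefore share the fusion and the genetic background of a single cell line. The type of control, the small interfering RNA and the time after its delivery are not given in the sources used here. The series calls the replicates biological but does not say that they were separate cultures, so p-values measure the spread between these libraries.

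p53 is a transcription factor that is held at a low level by MDM2 and its relative MDM4 and accumulates after DNA damage and other stress. It binds a paired-decamer sequence near its target genes, which act in cell cycle arrest, apoptosis, DNA repair and metabolism, and some of which, MDM2 among them, feed back on p53 itself. DDX5 has been described as a coactivator of p53 on some of these promoters, and some sarcomas amplify MDM2.

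Because membership in the list rests on regulation by p53, the promoter windows of the members were searched for the p53 response element, and the matches are shown before the expression values. RefSeq windows (GRCh38.p14) of 300 bases, with 250 before and 50 after each annotated start, existed for 26 of the member symbols, in 38 windows. Both strands were searched for the 20-base p53 response element consensus, made of paired decamers of 10 bases each, with at most 2 mismatches and no spacer. A match was present in 0.649% of all 35116 windows and in 5 of the 38 member windows, which hold 4 distinct sites in 4 genes. In the lines below the capitals mark the 4-base core of each decamer.
DDB2, chr11:47214969-47214988, plus strand, 1 mismatch: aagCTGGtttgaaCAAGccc
AEN, chr15:88621306-88621325, plus strand, 2 mismatches: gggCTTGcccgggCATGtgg
FAS, chr10:88991309-88991328, plus strand, 2 mismatches: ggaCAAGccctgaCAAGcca
MDM2, chr12:68808923-68808942, plus strand, 2 mismatches: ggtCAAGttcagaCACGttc
In GENCODE release 29 the sites in DDB2, AEN and FAS overlap an annotated exon of the gene, and the site in MDM2 lies between exons, in an intron of 7 of its transcripts. The MDM2 site fell in both of the MDM2 windows that overlap at that start. These matches describe letters within a short window and were not measured as bound. FBXO22, GADD45A, PHLDA3, TNFRSF10B, TNFRSF10C, TP53INP1, RRM2B and TRIM22P1 had no window. The log2 fold changes of siDDX5 over control for DDB2, AEN, FAS and MDM2 were -0.33, 0.08, 0.15 and 0.06, and 0 of the 4 passed the edgeR test (all genes 0.164%).

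The libraries held between 18202402 and 26156858 estimated counts, and the 3 deepest libraries were the control libraries. A floor of 3 counts corresponded to 0.115 to 0.165 CPM, the count scaled to a common library total, and the lowest tested member value was 0.541 CPM. DDX5 itself averaged 1307 ± 153 CPM in control against 483 ± 79.0 CPM in siDDX5 (SD, n = 3 each), at an edgeR adjusted p of 0.0106 for a log2 fold change of -1.44. The myogenic markers MYOD1, MYOG, DES, CDH15 and FGFR4 were between 78.7 and 619 CPM in every library and CHRNG was between 1.41 and 3.19 CPM, whereas EPCAM, KRT19, CD3E, CDH5, PDGFRA and LUM stayed under the count filter. Markers of other cell types that were detected included COL3A1 (120.2 ± 35.5 CPM in control, SD, n = 3) and PECAM1 (11.9 ± 1.78 CPM). The epithelial marker CDH1 was higher in all siDDX5 than in all control libraries (1.61 ± 0.374 CPM in control, 2.44 ± 0.247 in siDDX5, SD, n = 3 each), as was the leukocyte marker CD14 (0.462 ± 0.0786 and 0.854 ± 0.205 CPM). Both were low, 8.87% of all genes tested were likewise higher without overlap, and the part of these markers in the results was not tested. In a bulk sample, fewer cells of a kind and less RNA per cell cannot be told apart. Same-numbered libraries of the 2 groups shared deviations from the mean of their group, and both replicate 3 libraries stood apart from the other 4 on the first principal component, which held 30.9% of the variance. Values are therefore also given within the same-numbered pairs.

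Among the 32 tested p53 target genes, 0 passed the edgeR quasi-likelihood test of siDDX5 against control at an adjusted p of 0.05, and the lowest adjusted p was 0.118 for CCNG1. Over all genes tested, 25 passed, or 0.164% (0.0526% higher and 0.112% lower). With the replicate number as a block, 1 member passed, CCNG1, which was 1.39-fold higher in siDDX5 cells with an adjusted p of 0.0296, and 395 of all genes passed, or 2.59%. Higher genes made up 1.14% of those tested in that fit, so the single member is read against that share. The member log2 fold changes were small, from -0.46 for TP53INP1 to 0.48 for CCNG1. Of the 32 members, 24 lay within 0.3 of 0 on the log2 scale and 0 changed by more than 1.5-fold, against 764 of the 15223 genes. The DESeq2 Wald test, on the same libraries, called 1 of 33 members, CCNG1, as higher with an adjusted p of 0.00681. Over all genes it called 297 of 24618, 128 of them higher.

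More member estimates lay above 0 than below. There were 24 above 0 and 8 below, against 49.6% above 0 among all genes, and the member median was 0.08 against -0.0016 for all genes tested. Without siDDX5 replicate 1 the member median was 0.15. No test was made of the list as a whole. At an unadjusted p under 0.05 there were 4 higher members (all genes 5.37%) and 2 lower members (all genes 6%). With the block there were 7 higher (all genes 10.2%) and 4 lower (all genes 10.3%). The groups did not overlap for 7 members (all genes 18%), with siDDX5 above for 5 of them (all genes 8.87%) and below for 2 (all genes 9.16%). The number of estimates above 0 depended on the libraries and the scale used. It was 20 of 32 without control replicate 1, without control replicate 2 or without siDDX5 replicate 2. With length-scaled TPM counts it was 21 of 32, and in each fit to log2 TPM values 19 of 30 (TPM is a level adjusted for transcript length). In those log2 TPM fits the median over all genes was itself below 0, at -0.046 for log2(TPM + 1) and -0.053 for log2(TPM + 0.1). The member medians there were 0.057 and 0.058. The plot of fold change distributions shows the member values inside the central range of all genes.

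**Figure D1:**
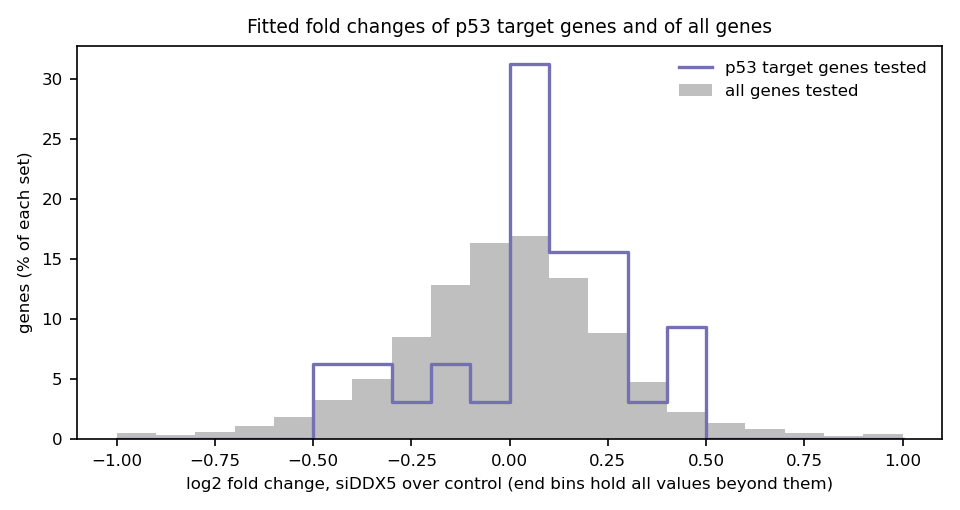
Share of genes (percent of each set, vertical axis) by log2 fold change of siDDX5 over control (horizontal axis), for the 32 p53 target genes tested (line) and all 15223 genes tested (grey bars). The members range from -0.46 to 0.48, and the end bins collect values beyond the axis.

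The 4 negative regulators of p53 had CPM estimates at or above 0. Those of MDM2 and MDM4 were below 0 in the fits to log2 TPM values, and that of FBXO22 was below 0 with the block. MDM4 (ENSG00000198625.12, chromosome 1, 204516379 to 204558120 of GRCh38), which binds p53 and blocks its activation domain, measured 126, 142 and 142 CPM in control replicates 1, 2 and 3 and 157, 156 and 171 CPM in siDDX5 replicates 1, 2 and 3. The siDDX5 values were all above the control values. The log2 fold change was 0.24 (SE 0.10), at an edgeR adjusted p of 0.419 without and 0.158 with the block. Per transcript length the groups overlapped, with 62.4, 79.9 and 66.6 TPM, the length-adjusted level scaled to a common total, in control and 82.1, 57.0 and 64.1 TPM in siDDX5, and the log2(TPM + 1) difference was -0.05. Over all genes the median in that log2(TPM + 1) fit was -0.046, and with length-scaled TPM counts the MDM4 estimate was 0.0022. The higher level of MDM4 in CPM was thus not seen per transcript length.

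PPM1D, which encodes the phosphatase WIP1 that removes activating phosphates from p53, measured 38.9, 39.3 and 40.0 CPM in control against 46.9, 42.0 and 47.5 CPM in siDDX5. The control values lay within a narrow range, and all siDDX5 values lay above it in CPM, while in TPM siDDX5 replicate 2 (19.4) was below control replicate 3 (19.9). The fitted log2 fold change was 0.21 (SE 0.11), at an edgeR adjusted p of 0.497 without and 0.238 with the block. MDM2 (ENSG00000135679.23, chromosome 12, 68808176 to 68850686), the ubiquitin ligase that marks p53 for degradation, measured 161, 152 and 160.2 CPM in control against 176, 154 and 164 CPM in siDDX5. These groups overlapped, and the log2 fold change was 0.06 (SE 0.10) with an edgeR adjusted p of 0.858. For MDM2 the sign turned on the TPM scale, where the log2(TPM + 1) difference was -0.19, against a median of -0.046 over all genes. FBXO22, the substrate-recognition subunit of a ligase that acts on methylated p53, averaged 54.1 CPM in both groups, with SDs of 1.53 in control and 7.58 in siDDX5 cells (n = 3 each).

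The 8 genes of cell cycle and growth arrest had CPM estimates above 0, but that of CCNG2 was below 0 on the TPM scale, and those of CDKN1A, GADD45A and PLK3 turned when single libraries were left out. CCNG1 had the lowest p of all members. CCNG1 (ENSG00000113328.18, chromosome 5, 163437569 to 163446151) encodes cyclin G1, a feedback regulator that recruits a phosphatase to MDM2. It measured 120.4, 123 and 107 CPM in control against 152, 172 and 165 CPM in siDDX5. Every siDDX5 library was above every control library, and the ratio was above 0 in all 3 pairs, at 0.34, 0.48 and 0.62 on the log2 scale. The mean went from 117 ± 8.47 to 163 ± 10.1 CPM (SD, n = 3 each), which is a log2 fold change of 0.48 (SE 0.11). The groups were also apart per length, with 122 to 135 TPM in control against 176 to 179.6 TPM in siDDX5. Over the alternative settings its estimate stayed between 0.42 and 0.53, while its adjusted p ran from 0.00681 with the DESeq2 Wald test to 0.665.

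PLK2 (ENSG00000145632.14, chromosome 5, 58453982 to 58460260), a polo-like kinase of the G1 phase and the centrosome cycle, measured 220.4, 167 and 241 CPM in control against 279, 308 and 286 CPM in siDDX5. The siDDX5 libraries were again all above the control libraries, but the pairs were uneven, with log2 ratios of 0.34, 0.89 and 0.25. This gave a log2 fold change of 0.48 (SE 0.14), and the edgeR adjusted p was 0.248 without and 0.0774 with the block. BTG2, an antiproliferative adaptor of the mRNA deadenylation complex, measured 63.2, 51.3 and 69.9 CPM in control against 73.5, 59.2 and 93.9 CPM in siDDX5. Its groups overlapped, with replicate 3 high and replicate 2 low in both, and each siDDX5 library was above the control library of the same number. The log2 fold change was 0.30 (SE 0.18), at an edgeR adjusted p of 0.562 without and 0.116 with the block. It was 0.19 without control replicate 2 and 0.12 without siDDX5 replicate 3.

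CDKN1A (ENSG00000124762.13, chromosome 6, 36676460 to 36687339) encodes p21, the inhibitor of cyclin-dependent kinases through which p53 arrests the cell cycle. It measured 111, 86.6 and 103 CPM in control against 85.3, 122 and 111 CPM in siDDX5. The groups overlapped, and the pairs went in different directions, with log2 ratios of -0.38, 0.50 and 0.11. The fitted log2 fold change was 0.08 (SE 0.15), with an edgeR adjusted p of 0.877, and its sign turned when control replicate 2 or siDDX5 replicate 2 was left out. GADD45A, a small stress-induced protein that restrains the G2 to M transition, had a log2 fold change of 0.07 (SE 0.17), with siDDX5 replicate 2 the highest library at 179 CPM and the other 5 between 111 and 138 CPM.

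PHLDA3, a lipid-binding repressor of AKT, had an estimate of 0.20 (SE 0.11). PLK3, a second polo-like kinase, had 0.04 (SE 0.17). CCNG2, an unconventional cyclin linked to growth arrest, differed between replicates far more than between groups. It measured 35.5, 35.3 and 74.0 CPM in control against 34.5, 32.3 and 83.4 CPM in siDDX5, so that both replicate 3 libraries were above all the others. Without both of these libraries its log2 fold change was -0.08, against 0.05 with them. The plot of levels by library shows the members named with a value in every library.

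**Figure D2:**
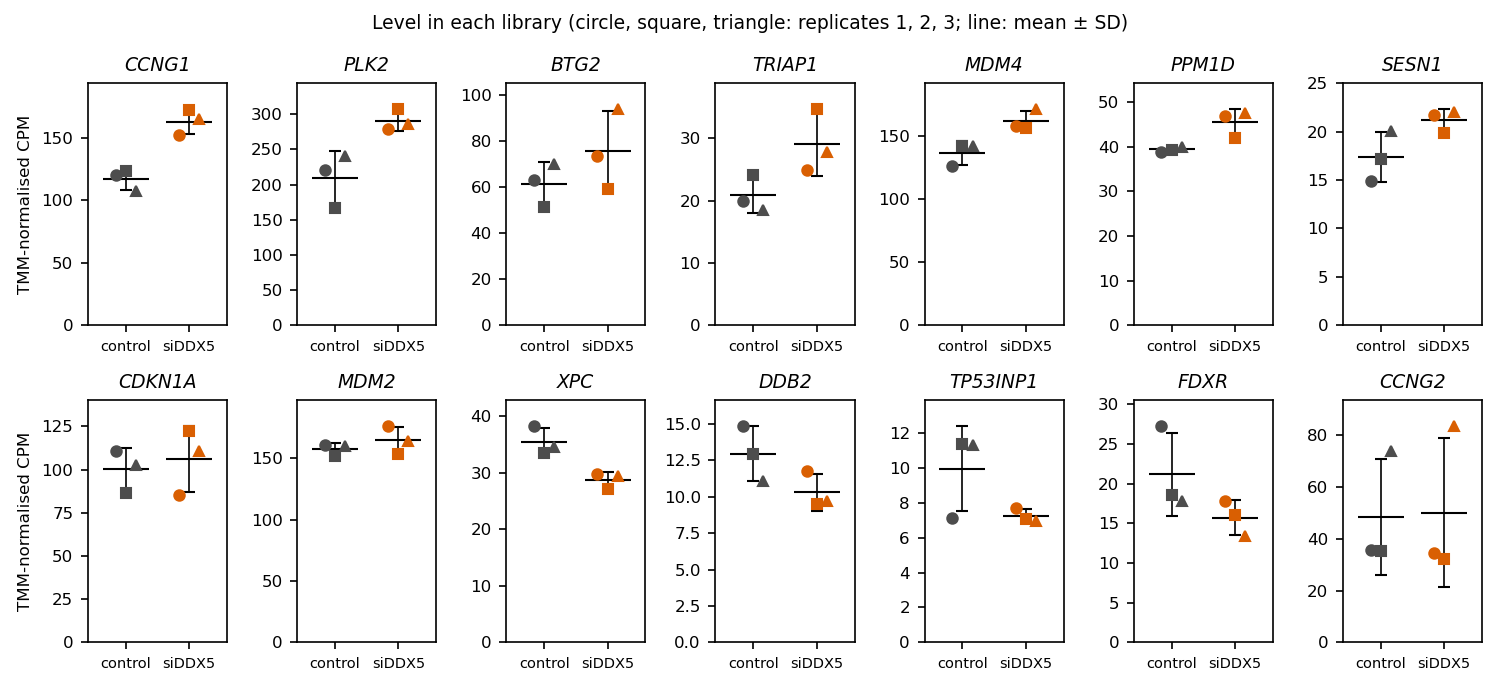
Level of 14 p53 target genes in each library (vertical axis, TMM-normalised CPM from 0), for control (grey) and siDDX5 (orange) cells. Symbols mark replicates 1, 2 and 3, and lines give the mean ± SD (n = 3). CCNG1, PLK2, TRIAP1, MDM4, PPM1D, XPC and FDXR show no overlap between groups in CPM (on the TPM scale MDM4, PPM1D and FDXR overlap), and CCNG2 is high in replicate 3 of both.

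Of the 10 apoptosis genes tested, 7 estimates were above 0 and 3 below. In edgeR 0 passed with the block (all genes 2.59%) or without the block (all genes 0.164%). Without it 1 had an unadjusted p under 0.05 and was higher (all genes 5.37%). With it 1 was higher (all genes 10.2%) and 1 lower (all genes 10.3%) at that threshold. TRIAP1 (ENSG00000170855.3, chromosome 12, 120443961 to 120446412), a small mitochondrial protein that counteracts apoptosis, measured 19.99, 24.1 and 18.6 CPM in control against 24.8, 34.7 and 27.7 CPM in siDDX5. The lowest siDDX5 library was just above the highest control library, and all 3 pairs went the same way, at 0.31, 0.52 and 0.58. This gave a log2 fold change of 0.48 (SE 0.16), at an edgeR adjusted p of 0.306 without and 0.0509 with the block.

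TP53INP1, a stress protein that promotes p53 phosphorylation and autophagy, measured 7.12, 11.4 and 11.3 CPM in control against 7.70, 7.04 and 6.93 CPM in siDDX5. Control replicate 1 lay with the siDDX5 libraries, while the other 2 control libraries were higher. The log2 fold change was -0.46 (SE 0.20), at an edgeR adjusted p of 0.443 without and 0.223 with the block. The estimates of BAX and BBC3 were closer to 0 than that of TP53INP1. BAX, which permeabilises the mitochondrial outer membrane, had a log2 fold change of 0.18 (SE 0.15). The BAX estimate was 0.0074 without siDDX5 replicate 2 and 0.29 with length-scaled TPM counts. BBC3, which encodes PUMA, an antagonist of BCL2 survival proteins, had a log2 fold change of -0.14 (SE 0.20).

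The death receptors spanned a wide range of levels. TNFRSF10B, a receptor for the ligand TRAIL, averaged 150.2 ± 10.4 CPM in control against 162 ± 18.7 CPM in siDDX5 (SD, n = 3 each). FAS, the receptor for the FAS ligand, was far lower at 1.91 ± 0.256 and 2.13 ± 0.479 CPM, and the sign of its difference turned on the TPM scale. The decoy receptor TNFRSF10C (0.737 ± 0.19 and 0.598 ± 0.0595 CPM) and EDA2R, a receptor for ectodysplasin (1.83 ± 0.225 and 1.90 ± 0.152 CPM), had few counts in every library. AEN, a nuclease that enhances apoptosis, and ZMAT3, an RNA-binding zinc finger protein, had log2 fold changes of 0.08 (SE 0.17) and 0.14 (SE 0.11).

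All 4 DNA repair genes had estimates below 0, except that RRM2B was above 0 with length-scaled TPM counts. In edgeR 0 of them passed with the block (all genes 2.59%) or without the block (all genes 0.164%). Without it 1 had an unadjusted p under 0.05 and was lower (all genes 6%). With it 2 were lower at that threshold (all genes 10.3%). XPC (ENSG00000154767.14, chromosome 3, 14145147 to 14178783), which recognises helix distortions in nucleotide excision repair, measured 38.2, 33.5 and 34.5 CPM in control against 29.7, 27.1 and 29.4 CPM in siDDX5. All siDDX5 libraries were below all control libraries, also per length. The fitted log2 fold change was -0.30 (SE 0.11), at an edgeR adjusted p of 0.357 without and 0.120 with the block. Exons of XPC share 318 bases with LSM3 and 1140 bases with AC093495.1 on the opposite strand, and whether the quantifier used the strand is not given in the sources used here.

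DDB2 (ENSG00000134574.11, chromosome 11, 47214465 to 47239240), the damage sensor whose promoter window holds the closest match printed above, measured 14.9, 13 and 11.1 CPM in control against 11.8, 9.48 and 9.68 CPM in siDDX5. The groups overlapped, and each siDDX5 library was below the control library of its number, by log2 ratios of -0.34, -0.45 and -0.20. This gave a log2 fold change of -0.33 (SE 0.17), at an edgeR adjusted p of 0.491 without and 0.171 with the block, and without control replicate 1 it was -0.22. POLH, the polymerase that copies past ultraviolet lesions, was lower in all 3 pairs with an estimate of -0.18 (SE 0.18), which was -0.020 without siDDX5 replicate 2. RRM2B, a subunit of ribonucleotide reductase that supplies nucleotides for repair, had -0.10 (SE 0.13).

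Among the stress and metabolism genes, 5 of the 6 estimates were above 0. The exception was FDXR (ENSG00000161513.11, chromosome 17, 74862497 to 74873031), a mitochondrial reductase that passes electrons to ferredoxin. It measured 27.3, 18.6 and 17.9 CPM in control against 17.8, 16 and 13.4 CPM in siDDX5. The groups did not overlap, but the highest siDDX5 library nearly met the lowest control library, and control replicate 1 stood above the rest. The log2 fold change was -0.43 (SE 0.19), at an edgeR adjusted p of 0.433 without and 0.0926 with the block, and without control replicate 1 it was -0.20. On the TPM scale the FDXR groups overlapped.

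SESN1, a sestrin that restrains growth signalling through mTOR, measured 14.9, 17.2 and 20.1 CPM in control against 21.7, 19.8 and 22 CPM in siDDX5. Only control replicate 3 and siDDX5 replicate 2 overlapped, and the log2 fold change was 0.28 (SE 0.14), at an edgeR adjusted p of 0.493 without and 0.204 with the block. Per transcript length SESN1 measured 15.5, 18.7 and 16.3 TPM in control against 19.3, 17.2 and 16.3 TPM in siDDX5, which overlapped broadly, and its estimate was 0.12 with length-scaled TPM counts and 0.06 on the log2(TPM + 1) scale. SESN2, its paralogue, had 0.20 (SE 0.22), and GDF15, a secreted stress cytokine, 0.33 (SE 0.27). The phosphatase TIGAR, which lowers glycolytic flux, had 0.09 (SE 0.16), and the oxidoreductase TP53I3 had 0.05 (SE 0.12). The estimate for TIGAR was 0.40 with length-scaled TPM counts and 0.37 on the log2(TPM + 1) scale, from 37.8 ± 10.2 TPM in control and 48.1 ± 6.92 in siDDX5 (SD, n = 3 each), which overlapped. Without siDDX5 replicate 2 the estimates were 0.026 for SESN2 and 0.022 for GDF15. For SESN2, GDF15, TIGAR and TP53I3 the edgeR adjusted p ran from 0.694 to 0.905.

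Seen within same-numbered pairs, the median log2 ratio of the members was 0.10, 0.13 and 0.04 in pairs 1, 2 and 3, and 17, 21 and 19 of the 32 members were higher in the siDDX5 library. All 3 pairs went the same way for 13 members (all genes 42.9%). They went up for 9 (all genes 21.8%), which were MDM2, MDM4, PPM1D, CCNG1, PLK2, BTG2, TRIAP1, ZMAT3 and SESN1. They went down for 4 (all genes 21.1%), which were XPC, DDB2, POLH and FDXR. The ratios of the remaining members differed in sign between pairs. The plot of pair ratios shows this spread for each gene.

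**Figure D3:**
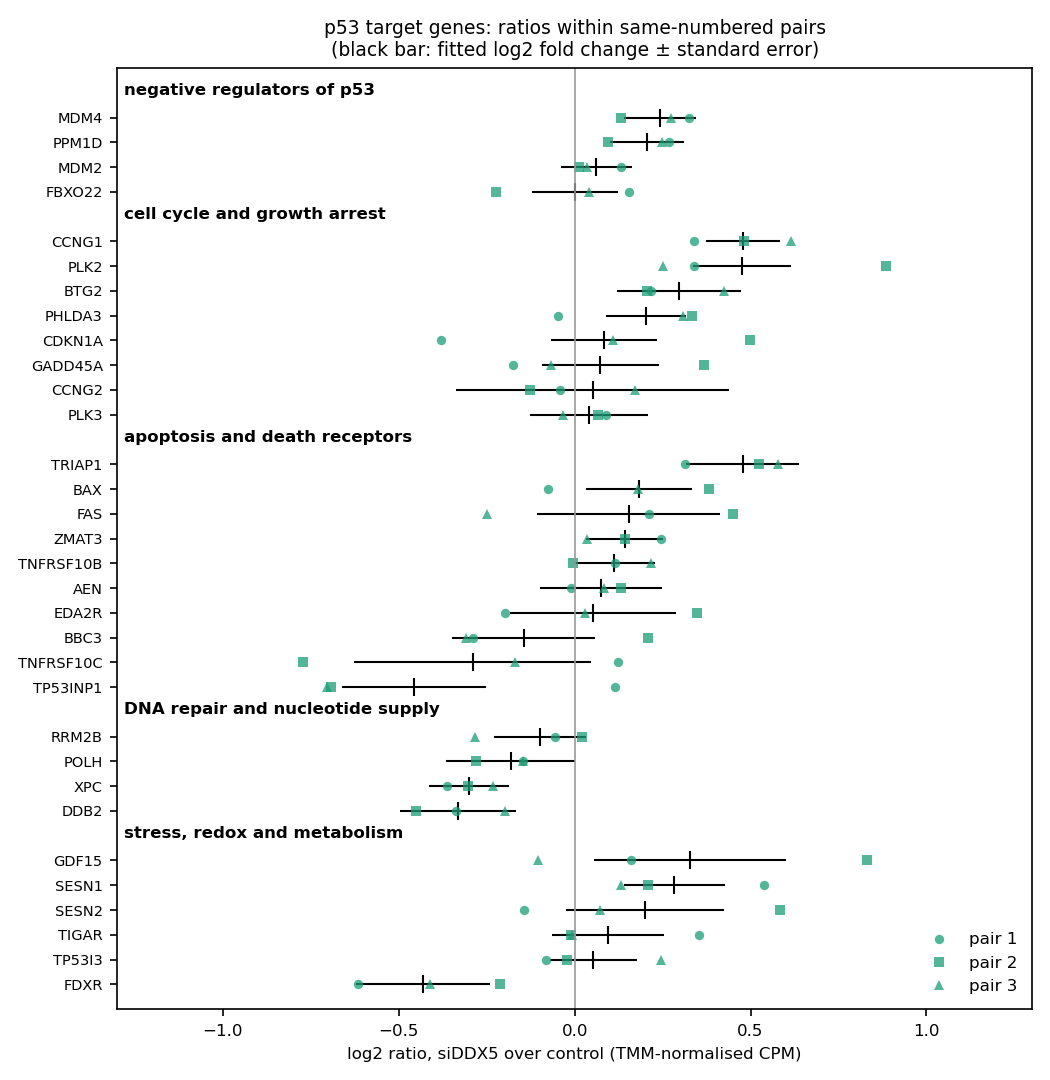
Log2 ratio of siDDX5 over control CPM (horizontal axis) for each of the 32 tested p53 target genes, grouped by role. Symbols are the ratios within pairs 1, 2 and 3, and the black bar is the fitted log2 fold change with its standard error. The fitted values of the 4 DNA repair genes lie left of 0 (RRM2B lies right of it with length-scaled TPM counts), and CDKN1A and GADD45A have pairs on both sides.

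A single library held many of the highest member values. Of the 32 members, 14 had their highest CPM in siDDX5 replicate 2, a library that was highest for 21.9% of all genes. CDKN1A, GADD45A, PLK2, BAX, AEN, SESN2 and GDF15 were among them. Without this library the member median was 0.056, and 20 of the 32 estimates were above 0. This count was made after the values had been seen, and its source was not tested.

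The members differed in level by over 2 orders of magnitude per transcript length. In control cells the highest was GADD45A at 237 ± 20.8 TPM (SD, n = 3), followed by PLK2 at 195 ± 33.2, CCNG1 at 131 ± 7.39, MDM2 at 118 ± 4.83 and BAX at 114 ± 9.30 TPM. The control values of GADD45A and PLK2 overlapped, as did those of CCNG1 and MDM2 and those of MDM2 and BAX. CDKN1A was in the middle of the upper part, at 59.5 ± 7.0 TPM. At the low end were FAS at 2.97 ± 0.862, EDA2R at 0.917 ± 0.178 and TNFRSF10C at 0.590 ± 0.157 TPM, and SPATA18 was listed at 0 in every control library. The plot of TPM levels shows this order in both groups.

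**Figure D4:**
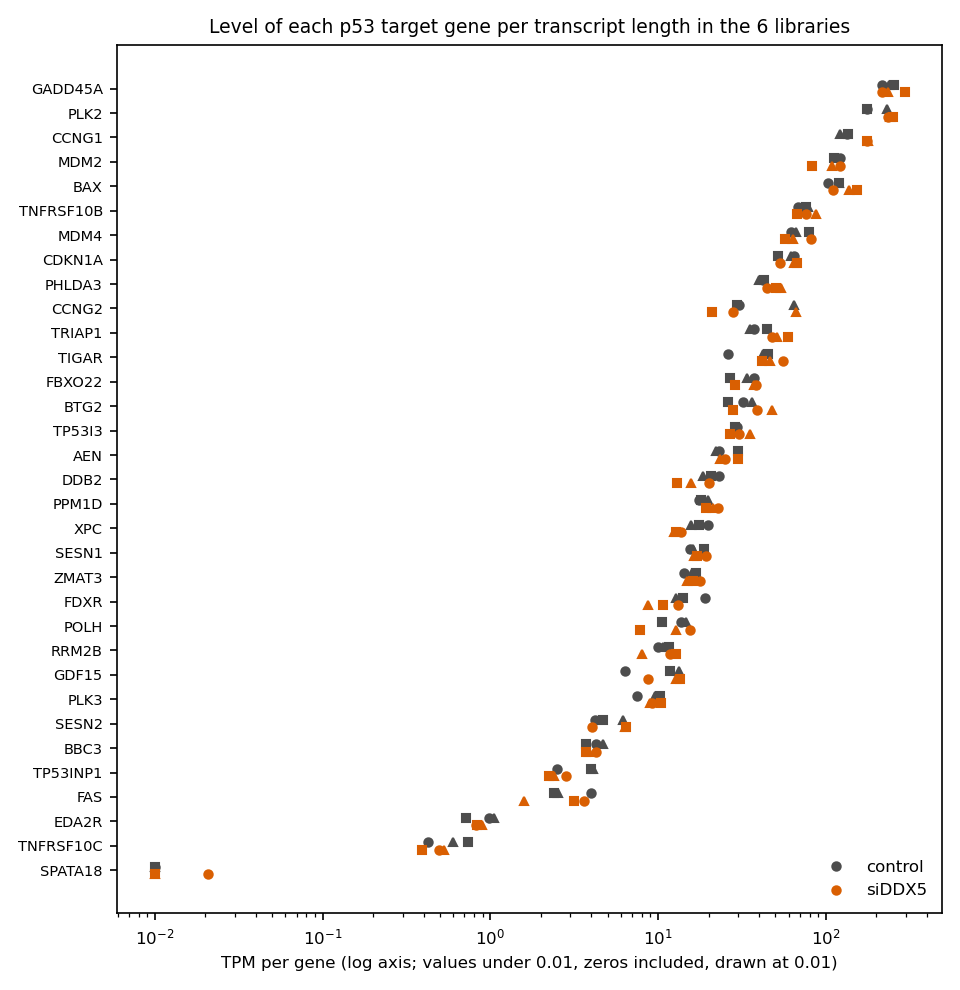
Level of 33 p53 target genes in the 6 libraries (horizontal axis, TPM on a log scale), ordered by the control mean, for control (grey) and siDDX5 (orange) cells. GADD45A, PLK2 and CCNG1 are at the top, and SPATA18, at 0 in 5 libraries, is drawn at 0.01 there.

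Gene sums do not show which transcript was counted, so relative transcript usage was compared for the 29 members of which 2 or more transcripts were tested. SESN2 is among them, but its 2 transcripts have the same length and each held 50% of its counts in every library. The test could therefore show no difference for SESN2. In diffSpliceDGE of edgeR, with Simes' method to combine transcripts, 0 members passed an adjusted p of 0.05 (all genes 1.59%), and 0 with the block (all genes 1.21%). TIGAR was the only member with an unadjusted p under 0.05 (all genes 5.37%), and it is singled out after its values were seen. The protein-coding transcript TIGAR-204 (ENST00000635110.1) held 8.47%, 4.92% and 7.12% of the counts of TIGAR in control and 17.4%, 27.1% and 18.6% in siDDX5 cells. All siDDX5 shares lay above all control shares. The main transcript TIGAR-201 (ENST00000179259.6) held 86.7% ± 0.651 in control and 70.9% ± 5.36 in siDDX5 cells (SD, n = 3 each). The edgeR adjusted p of TIGAR was 0.0864, and 0.111 with the block. In GENCODE release 29, 1711 bases of TIGAR exons (42.6%) are shared with the same-strand gene AC008012.1, so the division of reads is uncertain here. The tables list TIGAR-201 at 8209 bases, in a later version than that release holds.

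MDM2 and MDM4 have many transcripts, and neither passed the usage test. The main transcript MDM2-202 held 67.7% ± 1.54 of the MDM2 counts in control and 74.8% ± 5.06 in siDDX5 cells (SD, n = 3 each), with overlapping values. The shorter MDM2-225 held 13.8% ± 1.58 and 10.1% ± 3.18. For MDM4 the main transcript MDM4-205 held 61.6% ± 4.54 and 60.6% ± 10.8, and the similar MDM4-203 ranged from 6.31% to 32.7% among the siDDX5 libraries. MDM2 passed the usage test when control replicate 2 was left out (edgeR adjusted p 0.0175), and TIGAR when siDDX5 replicate 1 was left out (0.0452).

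Transcripts annotated as retained intron held between 2.94% and 4.41% of all member counts per library, against 4.55% to 5.92% over all genes. Among the 12 members with a mean of at least 10 such counts, TNFRSF10B had 4.75%, 7.2% and 4.88% of its counts on them in control and 8.18%, 10.7% and 8.73% in siDDX5 cells. It was the single member of the 12 with all siDDX5 shares above all control shares (all 5704 genes with such counts, 2.75%). MDM2 was the single member with all of them below (all such genes 10.9%), at 1.71% ± 0.0581 in control and 1.21% ± 0.166 in siDDX5 cells (SD, n = 3 each). DDB2 had most of its counts on retained-intron transcripts in both groups, 61.6% ± 5.36 in control and 60.5% ± 2.62 in siDDX5. These shares were examined after the data had been seen and carry no test, and the plot of transcript shares shows TIGAR, MDM2, MDM4, TNFRSF10B and BAX.

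**Figure D5:**
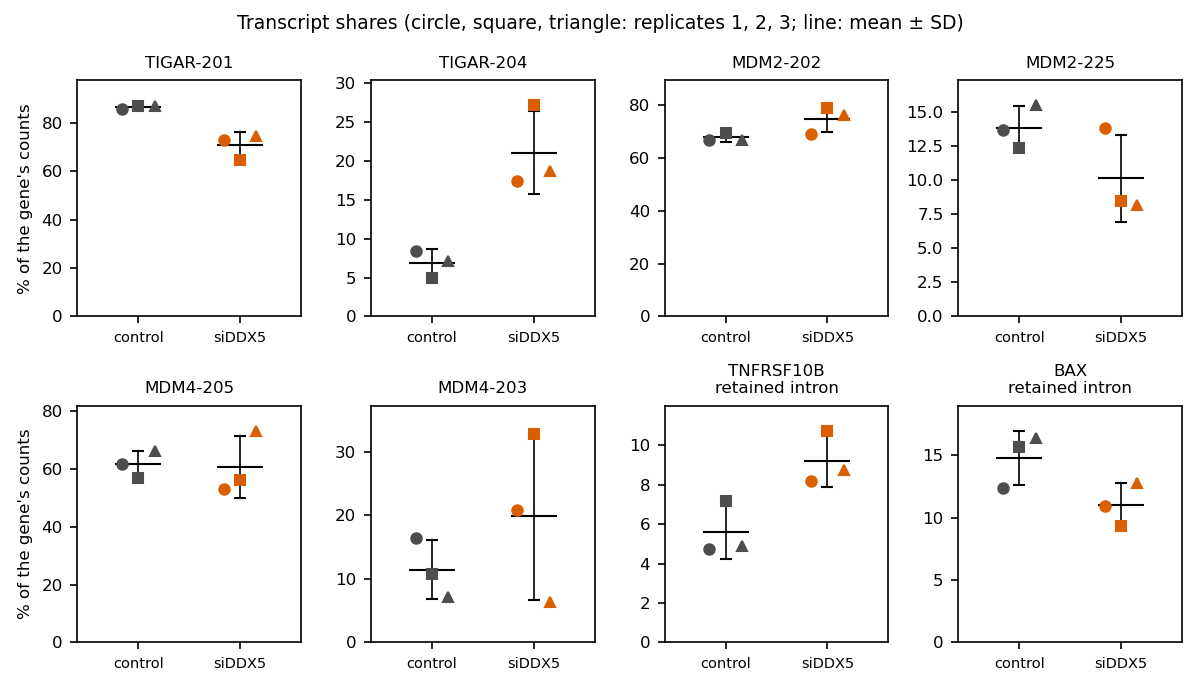
Share of a gene's estimated counts (vertical axis, percent from 0) on single transcripts of TIGAR, MDM2 and MDM4 and on all retained-intron transcripts of TNFRSF10B and BAX, in control (grey) and siDDX5 (orange) cells. Symbols mark replicates 1, 2 and 3, with mean ± SD (n = 3). The TIGAR-204 and TNFRSF10B shares do not overlap between groups, and the MDM4-203 shares spread widely within siDDX5 cells.

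The p53 family and its regulators were read beside the targets. TP63, a relative of p53, had a log2 fold change of 0.22 (SE 0.22). TP73, the other relative, which can bind the same response elements, measured 43.6, 39.2 and 36.4 CPM in control against 29.2, 32.5 and 27.0 CPM in siDDX5, with no overlap. The log2 fold change of TP73 was -0.43 (SE 0.12), and its edgeR adjusted p was 0.248 without and 0.0579 with the block. DDX17, the paralogue of DDX5, had 0.26 (SE 0.11), at an edgeR adjusted p of 0.405 without and 0.177 with the block. Of 30 genes of the p53 family and its regulators, 0 passed in edgeR without the block (all genes 0.164%). There 1 higher and 5 lower genes had an unadjusted p under 0.05 (all genes 5.37% and 6%). With the block 1 gene passed (all genes 2.59%). That gene was HIPK2, a kinase that phosphorylates p53, at 164 ± 28.5 CPM in control against 114 ± 17.5 CPM in siDDX5 (SD, n = 3 each), a difference of -0.53 on the log2 scale, at an edgeR adjusted p of 0.250 without and 0.0444 with the block.

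Of 76 further described p53 targets, 72 were tested, with a median log2 fold change of 0.05. Without the block 0 passed the edgeR threshold (all genes 0.164%). With it 2 were higher (all genes 1.14%) and 2 lower (all genes 1.45%). APAF1, the scaffold of the apoptosome, had 61.4 ± 10.3 CPM in control against 90.7 ± 19.0 CPM in siDDX5 (SD, n = 3 each), or 0.56 on the log2 scale, at an edgeR adjusted p of 0.253 without and 0.0125 with the block. PIDD1, a death-domain protein that activates caspase-2, had 27.5 ± 2.23 and 17.3 ± 2.25 CPM, a log2 fold change of -0.67, at an edgeR adjusted p of 0.0943 without and 0.0130 with the block. PLXNB2, a semaphorin receptor, had a log2 fold change of -0.60, at an edgeR adjusted p of 0.168 without and 0.0139 with the block. The fourth gene to pass with the block was CSF1, a macrophage growth factor named here after its values were seen, with a log2 fold change of 0.45 (edgeR adjusted p 0.178 without and 0.0397 with the block). Without the block, 5 higher and 8 lower genes of the 72 had an unadjusted p under 0.05 (all genes 5.37% and 6%).

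Genes repressed through p21 and the DREAM complex, the indirect arm of the p53 response, numbered 35, all tested, with a median of 0.07. Without the block 0 passed the edgeR threshold (all genes 0.164%), and 3 higher and 2 lower genes had an unadjusted p under 0.05 (all genes 5.37% and 6%). With it 1 passed, CDC25A, a phosphatase that activates cyclin-dependent kinases, at 58.6 ± 10.1 CPM in control against 84.3 ± 4.71 CPM in siDDX5 (SD, n = 3 each) with a log2 fold change of 0.52, at an edgeR adjusted p of 0.183 without and 0.0200 with the block. The ATF4 stress response shares SESN2 and GDF15 with p53 as regulated genes. Of 22 genes of that response, 21 were tested, with a median of 0.03. In edgeR 0 passed the threshold with the block (all genes 2.59%) or without it (all genes 0.164%). At an unadjusted p under 0.05 there were 0 without the block (all genes 11.4%). With it 2 were higher (all genes 10.2%) and 1 lower (all genes 10.3%).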

How the data were processed

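Messenger RNA of 6 Rh30 libraries, 3 control and 3 siDDX5, had been sequenced from stranded libraries, per the labels' protocols. The titles gave the group and replicate number of each library. The submitters' processing notes name bcl2fastq 2.20, FastQC 0.11.8, cutadapt 1.11, kallisto 0.46.0, GRCh38 and hg38, and the transcript annotation is not given in the sources used here. For 188753 transcripts the deposited tables list, per the file headers, estimated counts and TPM. The estimated counts of the authors are not normalized, and in the deposited TPM values the effective length is taken into account. Transcripts were joined to GENCODE release 29 genes by identifier (169797), symbol (15291) or position (890), and 2775 were left out. Counts summed per gene and rounded were filtered with filterByExpr, scaled with TMM and tested with glmQLFTest in edgeR 4.0.16 (R 4.3.3), with Benjamini-Hochberg adjustment over all genes tested. CPM values are TMM-normalised. Transcript usage was tested with diffSpliceDGE. SDs and standard errors leave out the error made when reads shared by transcripts are divided.

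Same-numbered libraries were treated as pairs because the correlation of their deviations from the group means, over 15223 genes, was 0.19, 0.25 and 0.54 for numbers 1, 2 and 3. The titles do not state what a number shares. The fit with this replicate block was an alternative, as were DESeq2 1.42.0, DESeq2 size factors, other filters, length-scaled TPM counts, limma-trend (limma 3.58.1) on log2(TPM + 1) and log2(TPM + 0.1), a join by identifier alone, and leaving out each library. The fit without replicate 3 of both groups was chosen after seeing the data. The tests were also run on simulated data without effects shared by same-numbered libraries. There edgeR, with or without the block, missed most planted changes of about the size of the largest member changes. The simulated spread was the same for every gene. In the measured libraries the common coefficient of variation was 15.7% without and 10.2% with the block. The simulated result with the block therefore does not describe the block fit of these data. Values in every library are given for members with an unadjusted p under 0.05 in either fit and for CDKN1A, MDM2 and MDM4. Of each other list, up to 3 genes passing in either fit were named, and CSF1 was added after its values were seen. The values of 1 gene of the regulator list are not reported here. The members and lists were chosen with earlier results of these data known.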

Additional observations from a re-analysis of the deposited data

How the results depend on the processing

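Of all genes, 25 changed as reported. The replicate block gave 395, the DESeq2 Wald test 297, the absence of a filter 136, length-scaled TPM counts 2, each limma-trend setting 1, the fit without replicate 3 of both groups 4, and the fits without one library 0 to 15. The number of p53 target genes changed, 0 as reported, was 1 with the DESeq2 Wald test and 1 with the replicate block, CCNG1 in both, and 0 under all other alternatives run, with 2 to 9 members at an unadjusted p under 0.05 in edgeR or limma. The replicate block changed no other member's call. DDX5 itself did not pass with length-scaled TPM counts (edgeR adjusted p 0.0670). It also did not pass with limma-trend on log2(TPM + 1) or log2(TPM + 0.1) (limma adjusted p 0.0850 and 0.0928). Without control replicate 1, 0 genes passed, DDX5 included. In these settings the absence of a called member therefore says little. The member median, 0.08 as reported, ranged from 0.056 to 0.15 without one library, the highest being without siDDX5 replicate 1, and from 0.057 to 0.12 under the other alternatives. The number of members with changed transcript usage, 0 as reported, was 0 to 1 without one library and 0 with no filter, a mean of at least 50 counts or the replicate block, the other alternatives run for usage. No library decided the direction of CCNG1, PLK2, TRIAP1, XPC, DDB2 or FDXR.

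Signs turned for estimates near 0. With length-scaled TPM counts they became -0.14 for MDM2, -0.060 for CCNG2, -0.042 for FAS, -0.065 for EDA2R and 0.079 for RRM2B. With limma-trend on log2(TPM + 1) they were -0.19 for MDM2, -0.047 for MDM4, -0.18 for CCNG2 and -0.094 for FAS, and on log2(TPM + 0.1) they were -0.19, -0.048, -0.18 and -0.14. The medians over all genes in these limma-trend fits were -0.046 and -0.053, so the MDM4 values lay near them. FBXO22 was at -0.0035 with no filter, at -0.00037 with a mean of at least 50 counts and at -0.0072 with the replicate block. Without replicate 3 of both groups they were -0.020 for FBXO22, -0.081 for CCNG2 and -0.049 for TP53I3. Without one library the estimates ranged from -0.071 to 0.11 for FBXO22, from -0.061 to 0.13 for PLK3, from -0.52 to 0.50 for CCNG2, from -0.051 to 0.25 for TIGAR, from -0.031 to 0.22 for CDKN1A, from -0.039 to 0.12 for EDA2R, from -0.12 to 0.23 for AEN, from -0.16 to 0.21 for GADD45A and from -0.043 to 0.11 for TP53I3. The cause was not tested. Depth limits the lowest members, TNFRSF10C, EDA2R and FAS.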
